A study of Mus musculus with 3 samples.

Results

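The genes described here encode core proteins of the spliceosome and the heterogeneous nuclear ribonucleoproteins (hnRNPs) that bind pre-mRNA with it. They were chosen by name: every mouse protein-coding gene whose symbol starts with Snrp, Srsf, Hnrnp, Sf3a, Sf3b or Prpf and fits the numbering of that family. The rule itself uses names and no binding value, although it was set with earlier results of these data known. It gave 65 of 21851 protein-coding genes, namely 12 Snrp, 9 Sf3a and Sf3b, 13 Prpf, 11 Srsf and 20 Hnrnp genes. A GLI3 peak was credited to a gene when its summit lay between 2 kb upstream and 1 kb downstream of a transcription start site (TSS) of that gene. By this rule 59 of the 17149 peaks in the list, and of the 8111 peaks at promoters of any protein-coding gene, were promoter peaks of these genes.

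GLI3 is a zinc finger transcription factor that carries Hedgehog (HH) signals to target genes in the limb bud. Binding was mapped by ChIP-seq, in which DNA fragments bound to a protein are recovered with an antibody and sequenced, using mice whose endogenous Gli3 allele encodes a FLAG epitope tag. The material was forelimb buds at E10.5 (32 to 35 somites) on a mixed strain background, dissociated before fixation, with 2 litters pooled in each reaction and no treatment, and all samples shared the genotype label wild type although the study used the tagged allele. The data comprised 2 ChIP replicates and 1 input library of chromatin without immunoprecipitation, amplified with 15 PCR cycles, from which the authors made a single peak list. The list holds no values per replicate and no read totals, so differences given here have no replicate error beside them, the exact depth of each library cannot be read from it beyond the minimum that the methods state, and the identity of the tissue could not be checked against marker genes. Enrichment was measured against input chromatin of bulk tissue, and no ChIP from untagged embryos was analysed here.

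The spliceosome removes introns from pre-mRNA. Its small nuclear ribonucleoproteins (snRNPs) each hold a small nuclear RNA in a ring of Sm proteins, the SF3a and SF3b complexes anchor the U2 snRNP at the branch point, and the Prpf proteins build and remodel the assembled machine. SR proteins and hnRNPs bind the transcript itself and act for or against the use of particular exons. Most of these proteins are made in nearly every cell type, and their promoters are as a rule rich in CpG dinucleotides.

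The stretches of DNA at the highest-ranked promoter peak of each family are printed because the results turn on what sort of promoter sequence these peaks cover. They were read from the GRCm38.p6 genome (mm10), 5′ to 3′ on the plus strand, and are shortened where an annotated untranslated region begins. They lie at chr7:60004112-60004311 for Snrpn, chr8:110846813-110846991 for Sf3b3, chr3:108911728-108911851 for Prpf38b, chr5:115327082-115327176 for Srsf9 and chr7:28811327-28811526 for Hnrnpl. Capitals mark GGGCGG, the GC box bound by SP and KLF factors, or CCAAT, the box bound by NFY, on either strand.
Snrpn: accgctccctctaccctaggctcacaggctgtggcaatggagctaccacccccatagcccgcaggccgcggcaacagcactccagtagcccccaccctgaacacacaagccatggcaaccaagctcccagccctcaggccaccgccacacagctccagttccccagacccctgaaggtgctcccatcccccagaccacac
Sf3b3: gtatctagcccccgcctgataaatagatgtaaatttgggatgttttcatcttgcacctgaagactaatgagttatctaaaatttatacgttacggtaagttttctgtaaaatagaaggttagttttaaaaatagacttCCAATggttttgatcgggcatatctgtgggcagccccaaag
Prpf38b: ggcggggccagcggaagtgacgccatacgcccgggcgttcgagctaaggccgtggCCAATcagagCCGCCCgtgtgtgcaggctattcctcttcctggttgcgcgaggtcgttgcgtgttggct
Srsf9: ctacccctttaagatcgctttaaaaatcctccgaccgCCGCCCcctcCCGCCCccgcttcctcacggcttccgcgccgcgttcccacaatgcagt
Hnrnpl: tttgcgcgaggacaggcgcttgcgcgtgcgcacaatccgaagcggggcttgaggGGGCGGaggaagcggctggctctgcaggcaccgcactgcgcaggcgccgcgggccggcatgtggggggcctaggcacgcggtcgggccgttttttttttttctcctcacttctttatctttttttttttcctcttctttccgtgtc
No stretch held the GLI consensus GACCACCCA. The Srsf9 stretch carried the GC box as the complement CCGCCC at adjacent places, and the stretch itself ended at the base before the TSS. The Prpf38b stretch held a CCAAT box beside a GC box, and the Sf3b3 stretch, with a GC content of 36.9%, held a CCAAT box.

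Of the 65 genes, 39 had a listed promoter peak (60.0%, 95% Wilson interval 47.9 to 71.0, counting error over genes only), where the background over all protein-coding genes was 30.7%. A peak with a false discovery rate (FDR) under 0.05 was present at 25 genes (38.5%, interval 27.6 to 50.6), against 17.0% of all protein-coding genes. Another 14 genes had listed peaks only at an FDR of 0.05 or more, and 26 genes had none. Among the other 21786 protein-coding genes the shares were 30.6% and 17.0%.

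Promoters of splicing genes belong to a class in which GLI3 peaks were common. A CpG island was found in the promoter window of 63 of the 65 genes (96.9%), Snrpn and Prpf31 being the exceptions, against 58.2% of other protein-coding genes. Among the 12676 other genes with such an island, 50.1% had a listed promoter peak and 28.2% had a peak at an FDR under 0.05. Among the 9110 without an island the shares were 3.61% and 1.38%. All 65 splicing genes together therefore stood 9.92 percentage points above other CpG island genes for listed peaks, and the value for those genes lay inside the interval around their own share. Among the 63 with an island, 38 had a listed peak (60.3%, interval 48.0 to 71.5) and 38.1% had one at an FDR under 0.05.

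The gap to other CpG island genes was larger in value among genes that shared their promoter region with a neighbour, though this contrast was not tested. For 24 of the 65 genes, 22 of them with a CpG island, the window overlapped that of another protein-coding gene. Of these 24, 19 had a listed peak (79.2%, interval 59.5 to 90.8), where other CpG island genes with a shared window gave 58.2%. Of the 41 genes with a window of their own, 20 had a peak (48.8%, interval 34.3 to 63.5), beside 47.8% of other CpG island genes of the same kind. At an FDR under 0.05 the shares were 54.2% against 34.1% with a shared window and 29.3% against 26.5% without. A peak in a shared window was credited to both genes, and the list does not tell which of them it concerns.

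**Figure D1:**
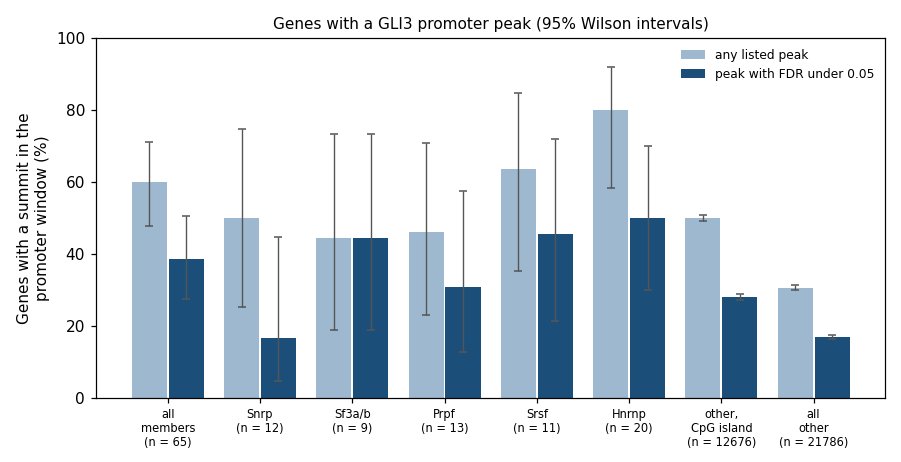
Share of genes (vertical axis, %) with a GLI3 summit in the promoter window, for all 65 genes, each family, other genes with a CpG island promoter and all other protein-coding genes. Pale bars count any listed peak and dark bars peaks with an FDR under 0.05, with error bars for 95% Wilson intervals. Hnrnp genes reached 80.0% for listed peaks, and the intervals of the other families all span the 50.1% of other CpG island genes.

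By family, listed peaks were found at 6 of 12 Snrp genes (50.0%), 4 of 9 Sf3a and Sf3b genes (44.4%), 6 of 13 Prpf genes (46.2%), 7 of 11 Srsf genes (63.6%) and 16 of 20 Hnrnp genes (80.0%, interval 58.4 to 91.9). At an FDR under 0.05 the counts were 2 (16.7%), 4 (44.4%), 4 (30.8%), 5 (45.5%) and 10 genes (50.0%), beside 28.2% of other CpG island genes and 17.0% of all other genes. Without the Hnrnp family, 23 of 45 genes (51.1%) had a listed peak and 15 (33.3%) had one under the FDR threshold. The families were not tested against each other. Each start site of a gene adds a window. The median number of start sites was 3 for Hnrnp genes, 1 for the genes outside that family and 2 for other CpG island genes. The part of this in the shares was not tested. With only the 5′ end of each gene, 53.8% of the 65 genes and 46.2% of other CpG island genes had a listed peak.

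The enrichment of each peak is given as the list has it, as the highest log2 ratio of ChIP to input that any stretch of the peak reached, and the rank runs from 1 for the strongest of the 17149 peaks. Rank, FDR and log2 fold enrichment derive from the same signal and are not independent measures. Each is a single value per peak, with none given per replicate.

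**Figure D2:**
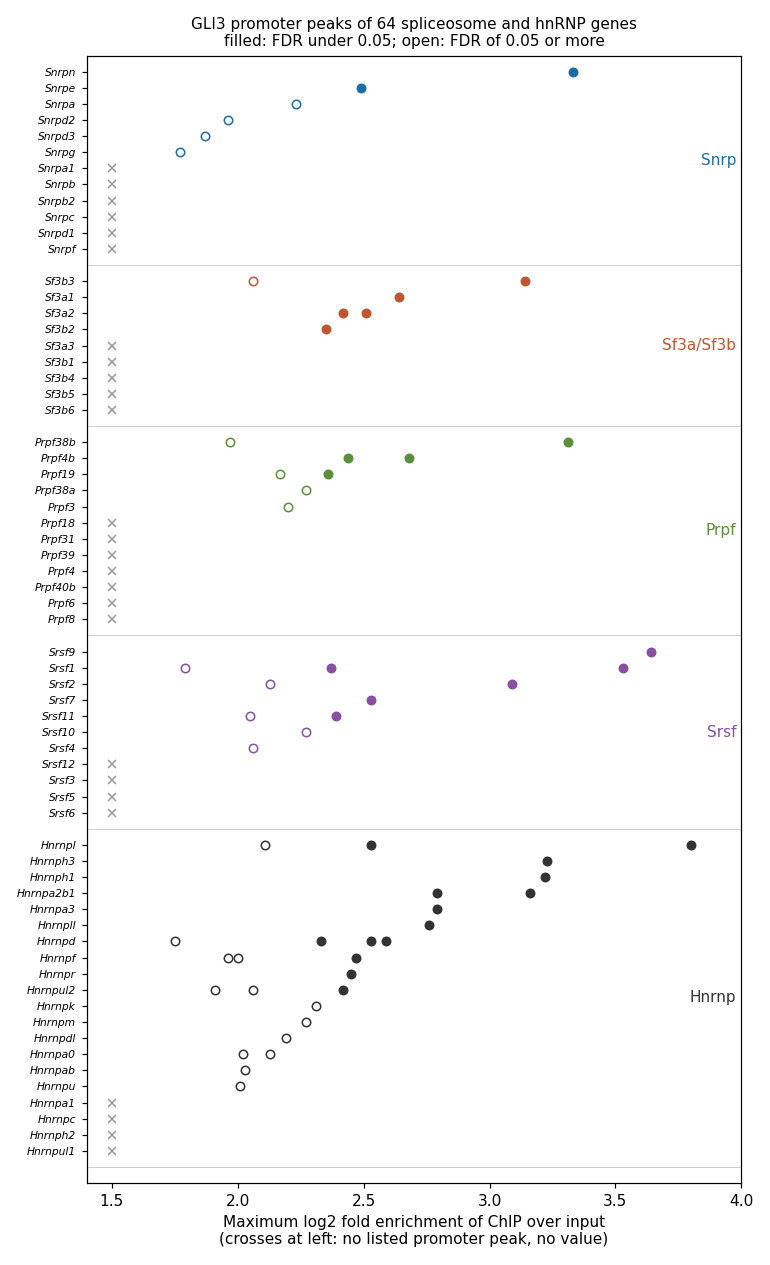
Maximum log2 fold enrichment of ChIP over input (horizontal axis) for the promoter peaks of 64 of the 65 genes, with genes as lines grouped by family. Filled circles are peaks with an FDR under 0.05, open circles peaks at 0.05 or more, and grey crosses genes with no listed promoter peak, which have no value. Hnrnpl, Srsf9 and Srsf1 are farthest to the right at 3.80, 3.64 and 3.53.

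The Snrp genes encode the Sm ring and proteins particular to single snRNPs. The strongest peak of the family was at Snrpn, which encodes SmN, an Sm protein of brain and heart made from an imprinted locus. It lay at chr7:60003950-60004599 with a log2 fold enrichment of 3.33 (rank 1057, FDR listed as 0), and its summit was in an intron 899 bp downstream of the nearest Snrpn TSS and 837 bp from that of Snurf, which shares the transcript. The sequence within 250 bp of its summit had a ratio of observed to expected CpG of 0.38, the lowest of the 59 peaks. Snrpe, which encodes SmE, had a peak of 2.49 (rank 5322, FDR 0.011402) with the summit 98 bp downstream of the TSS.

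The remaining Snrp peaks were weak. Snrpa, which encodes a protein of the U1 snRNP, had a log2 fold enrichment of 2.23 with an FDR of 0.132755. Snrpd2, Snrpd3 and Snrpg, all of the Sm ring, had 1.96, 1.87 and 1.77 with FDRs from 0.727328 to 1. The Snrpd2 summit was 11 bp from the start of Qpctl, and that of Snrpa was nearer to BC024978, while the Snrpd3 window is shared with Gucd1. Thus 5 of the 8 Sm ring genes had a listed peak (62.5%) and 2 had one under the threshold (interval 7.15 to 59.1%), beside 50.1% and 28.2% of other CpG island genes. No listed summit fell at Snrpb, Snrpd1 or Snrpf of the ring, at Snrpc of the U1 snRNP, or at Snrpa1 and Snrpb2 of the U2 snRNP.

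In the U2 snRNP, 2 of 3 SF3a genes and 2 of 6 SF3b genes had a promoter peak, and each of the 4 had one under the FDR threshold. The listed shares of 66.7% and 33.3% lay on either side of the 50.1% of other CpG island genes, in which 28.2% passed the threshold. Sf3b3, the scaffold of the SF3b complex, had the strongest, at chr8:110846750-110847099 with a log2 fold enrichment of 3.14 (rank 1518, FDR listed as 0) and a summit 116 bp upstream of the TSS. The window is shared with Cog4, transcribed the other way, and a weaker Sf3b3 peak of 2.06 (FDR 0.438195) lay nearer to the start of Cog4. Sf3a1 had a peak of 2.64 (rank 4003, FDR 0.004168), and Sf3a2 had a pair of 2.51 and 2.42 (FDRs 0.011402 and 0.020787) close to its start sites. The windows of these genes are shared with Ccdc157 and Plekhj1, respectively. Sf3b2 was nearest to the threshold of these, with 2.35 (rank 6813, FDR 0.037408). No listed summit was found at Sf3b1, whose protein contacts the branch point region of the intron, nor at Sf3a3, Sf3b4, Sf3b5 or Sf3b6.

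Among the Prpf genes the strongest peak was at Prpf38b, at chr3:108911550-108912049, with a log2 fold enrichment of 3.31 (rank 1095, FDR listed as 0) and the summit 25 bp upstream of the TSS. A neighbouring weak peak of 1.97 (FDR 0.727328) lay in the 5′ UTR. Prpf4b, which encodes a kinase, had peaks on both sides of its TSS, of 2.68 at 360 bp downstream and 2.44 at 765 bp upstream (FDRs 0.002284 and 0.020787). Prpf19, the ubiquitin ligase that organises the activated spliceosome, had 2.36 (FDR 0.037408) and a second peak of 2.17 (FDR 0.148489).

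Prpf38a and Prpf3 had listed peaks of 2.27 and 2.20, both above the threshold, the first in a window shared with Orc1. No listed summit fell in the window of Prpf8, whose protein holds the catalytic RNA core in place, nor of Prpf4, Prpf6, Prpf18, Prpf31, Prpf39 or Prpf40b. Prpf6, which bridges the tri-snRNP, lies at the edge of the rule. A peak of 2.90 (rank 2441, FDR listed as 0) lay 994 bp downstream of the start of a Prpf6 transcript that is outside the basic annotation set, and it would count if that transcript were used.

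SR proteins bind exonic enhancers and recruit the splicing machinery, and this family held the strongest peaks of all 59 after that of Hnrnpl. At Srsf9 the peak at chr5:115326950-115327399 had a log2 fold enrichment of 3.64 (rank 579, FDR listed as 0), and its summit lay 5 bp downstream of the single annotated TSS. Srsf1, the founding member of the family, had 3.53 (rank 703) with the summit 14 bp downstream of its nearest start site. Weaker peaks of 2.37 (FDR 0.037408) and 1.79 (FDR 1) followed, 369 and 769 bp downstream of a different, internal start site. Srsf2 had 3.09 (rank 1693) at 158 bp upstream, in a window shared with Mfsd11, and a weaker peak of 2.13 (FDR 0.232703) in its coding exon. The strongest peaks of these 3 genes were thus within 158 bp of a start site.

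Srsf7 had 2.53 (rank 4949, FDR 0.007055), in a window shared with Ttc39d. Srsf11 had a separate peak at each of its start sites, of 2.39 (FDR 0.020958) at 24 bp downstream of the internal site and 2.05 (FDR 0.438195) at 37 bp downstream of the outer site, whose window is shared with Lrrc40. Srsf10 and Srsf4 had listed peaks of 2.27 and 2.06 above the threshold. Srsf3, Srsf5, Srsf6 and Srsf12 had no listed summit.

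The hnRNPs package nascent transcripts and often oppose SR proteins. The strongest peak of all 59 belonged to Hnrnpl, which binds CA-rich RNA, and lay at chr7:28811150-28811649 with a log2 fold enrichment of 3.80, rank 403 and a −log10 Poisson p of 82.5. Its summit was in an intron, 537 bp downstream of an internal TSS. Hnrnpl had further peaks of 2.53 (FDR 0.007055), 339 bp downstream of a start site, and of 2.11 (FDR 0.234474), 703 bp upstream of the nearest one. Hnrnph3 and Hnrnph1, which bind G-rich RNA, had single peaks of 3.23 (rank 1258) and 3.22 (rank 1290) at 128 and 152 bp upstream of a start site, the first in a window shared with Pbld2.

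Hnrnpa2b1 had the longest promoter peak, of 1300 bp, with a log2 fold enrichment of 3.16 (rank 1453). Its summit was 593 bp upstream of the nearest Hnrnpa2b1 start and 43 bp from a start of Cbx3, so it was nearer to the start of the neighbour. A second peak of 1000 bp and 2.79 (rank 3035) had its summit 535 bp downstream of a different Hnrnpa2b1 start. Hnrnpd, which controls the decay of AU-rich mRNAs, had 4 peaks, the most of any of the 65 genes. They had log2 fold enrichments of 2.59, 2.53, 2.33 and 1.75 (FDRs 0.004551, 0.007055, 0.037408 and 1), and the last 2 lay nearer to the start of 4930524J08Rik.

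Of the other Hnrnp genes under the threshold, Hnrnpa3 had 2.79 and Hnrnpll, a splicing regulator of lymphocytes, had 2.76. Hnrnpf had 2.47 and Hnrnpul2 had 2.42, each with a pair of weaker peaks between 1.91 and 2.06, and Hnrnpr had 2.45. The 6 genes with listed peaks only above the threshold were Hnrnpk, Hnrnpm, Hnrnpdl, Hnrnpa0, Hnrnpab and Hnrnpu, between 2.01 and 2.31, with Hnrnpa0 holding a pair of peaks of 2.13 and 2.02 (FDRs 0.232703 and 0.438195). Peaks of Hnrnpul2, Hnrnpk and Hnrnpdl lay in windows shared with Ttc9c, Rmi1 and Enoph1. Hnrnpa1, Hnrnpc, Hnrnph2 and Hnrnpul1 had no listed summit. The FDR threshold fell between the third Hnrnpd peak at 2.33 (FDR 0.037408) and the Hnrnpk peak at 2.31 (FDR 0.070419), a step of 0.02 in log2 fold enrichment.

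Promoter peaks of splicing genes were close in strength to those at other promoters. The 59 peaks had a median log2 fold enrichment of 2.36 (interquartile range 2.06 to 2.66, highest 3.80), beside 2.27 (2.03 to 2.65, highest 6.05) for 8052 peaks at other promoters and 2.28 at other CpG island promoters. Among peaks under the FDR threshold the order was the opposite, with 2.62 for 32 peaks of splicing genes and 2.70 for 3713 others. Only 3 of the 59 peaks, those of Hnrnpl, Srsf9 and Srsf1, were among the 1000 strongest of the list (5.08%), where 6.21% of all promoter peaks were. Taking the strongest peak of each gene gave a median of 2.47 for the 39 splicing genes and 2.41 for other CpG island genes with a peak.

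Peaks of splicing genes were longer by median, with a value of 350 bp against 250 bp at other promoters, and more of the genes had several. A second promoter peak was present at 14 of the 39 genes with a peak (35.9%), beside 26.8% of other CpG island genes with a peak. Of the 14, 9 had 2 peaks, 4 had 3 and Hnrnpd had 4. The 2 groups of genes were not tested against each other.

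All 59 summits lay within 1 kb of a start site, and the upstream part of the window beyond 1 kb held 0 of them, which by a limit of 3 counts allows a share of up to 5.08%, where 3.84% of other promoter peaks lay that far out. The median distance to the nearest start of the splicing gene was 209 bp, or 191 bp to the nearest start of any gene, against 138 bp for other promoter peaks. Under the FDR threshold the medians were 128 bp to the start of the splicing gene and, for other promoter peaks, 117 bp to the nearest start of any gene. Summits upstream of the start made up 26 of 59 (44.1%) by the start of the splicing gene and 23 of 59 (39.0%) by the nearest start of any gene, against 50.6% at other promoters by the latter measure. By annotation 20 summits were in introns, 17 were upstream of the gene, 16 in 5′ UTRs and 6 in coding exons. Another gene's window also held 27 of the 59, and for 52 the nearest start site belonged to the splicing gene.

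**Figure D3:**
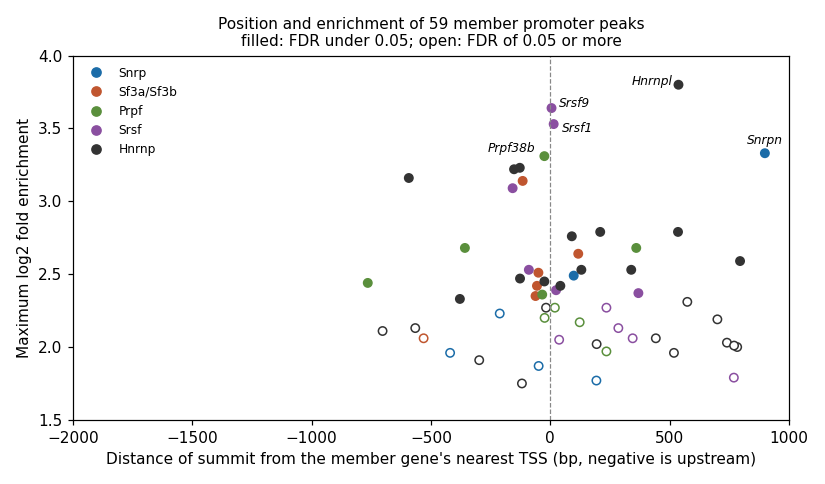
Distance of each of the 59 summits from the nearest TSS of its gene (horizontal axis, bp, negative upstream, the dashed line marking the TSS) against maximum log2 fold enrichment (vertical axis), coloured by family. Filled circles have an FDR under 0.05. The Srsf9, Srsf1 and Prpf38b peaks sit at 5, 14 and -25 bp, the Hnrnpl and Snrpn peaks at 537 and 899 bp, and no summit lies more than 765 bp upstream.

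The sequence under the peaks was searched within 250 bp of each summit on both strands. The GLI consensus GACCACCCA with at most 1 mismatch was found at 8 of 59 peaks (13.6%, interval 7.03 to 24.5), beside 15.3% of other promoter peaks and 15.0% of those at CpG island promoters. The exact consensus was found at 0 of 59, which by the limit of 3 counts allows a share of up to 5.08% (Wilson upper bound 6.11%), and at 1.15% of other promoter peaks. Within 100 bp of the summit 4 peaks (6.78%) had a match, against 7.49% elsewhere. A match is a description of letters and not evidence of a bound site.

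For each peak under the FDR threshold with a match, the match nearest to the summit is printed with its flanks to show how it departs from the consensus, in capitals and read on the strand of the match, with substitutions counted from 1 at the 5′ end of GACCACCCA. They lie at chr7:60004294-60004323 for Snrpn, chr10:80798010-80798039 for Sf3a2, chr13:34875822-34875851 on the minus strand for Prpf4b, chr3:158031820-158031849 for Srsf11 and chr5:99978914-99978943 for Hnrnpd.
Snrpn (C7A): ccatcccccaGACCACACAagctgcgaccg
Sf3a2 (A2C): gttctcattcGCCCACCCAggaaccgcgcc
Prpf4b (G1C): cctcccgccgCACCACCCAcggcgcgcggc
Srsf11 (A2C): tcccggctgcGCCCACCCAgctgagccacc
Hnrnpd (C8T): cgccgccgcgGACCACCTAaaatggccgac
Sf3a2 and Srsf11 shared the same 9 bases, with A2C. The Snrpn and Srsf11 matches were 96 and 92 bp from the summit, and the other 3 lay beyond 100 bp.

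Other promoter motifs were matched exactly, with no overlap between the letters searched other than by chance. GGGCGG, the GC box, was present at 83.1% of the 59 peaks and at 79.4% of other promoter peaks, and CCAAT at 37.3% and 39.9%. CCGGAAG, the core bound by ETS factors, was present at 21 of 59 (35.6%, interval 24.6 to 48.3) against 19.1% of other promoter peaks and 19.4% of those at CpG island promoters. The same motif was found within 250 bp of the annotated 5′ end of 36.9% of the 65 genes, against 21.3% of other CpG island genes, with 38.5% among genes with a peak and 34.6% among genes without. At the same 5′ ends CCAAT was found at 58.5% of the 65 genes against 45.1% of other CpG island genes. A GLI match was found there at 8 of the 65 genes (12.3%), beside 11.1% of other protein-coding genes. The counts were 3 of 39 genes with a peak (7.69%, interval 2.65 to 20.3) and 5 of 26 without (19.2%, interval 8.51 to 37.9). Both intervals include the 11.1%, and these groups were not tested against each other. GCATGCGC, bound by NRF1, was at 6.78% against 7.64%, and AAGATGGC, bound by YY1, at 10.2% (interval 4.74 to 20.5) against 6.06%. Peaks of the same gene can share part of these windows.

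**Figure D4:**
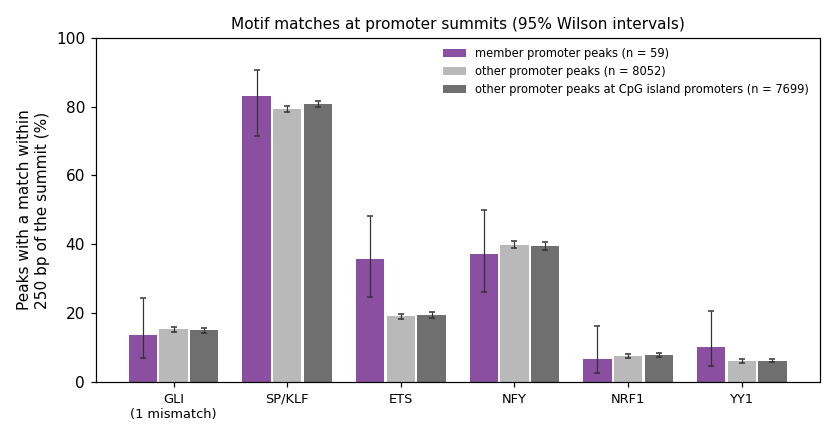
Share of peaks (vertical axis, %) with a motif match within 250 bp of the summit, for the promoter peaks of splicing genes, other promoter peaks and other promoter peaks at CpG islands. Error bars are 95% Wilson intervals. GLI matches were at 13.6%, 15.3% and 15.0%, and ETS matches at 35.6%, 19.1% and 19.4%.

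The base composition around the summits was also that of CpG islands. The median GC content was 67.3% against 64.7% at other promoter peaks, and the median ratio of observed to expected CpG was 0.94 against 0.81. Around the annotated 5′ ends, genes with a peak had a median GC content of 63.9% and genes without had 58.9%, while their CpG ratios were 0.86 and 0.87. The part of base composition in the recovery or alignment of fragments was not tested.

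Splicing genes outside the 5 families were taken as 8 lists of other components and regulators, 150 genes in all. A listed promoter peak was present at 79 of them (52.7%, interval 44.7 to 60.5) and a peak under the FDR threshold at 46 (30.7%, interval 23.8 to 38.5), close to the 50.1% and 28.2% of CpG island genes. Other snRNP and LSm proteins had 17 of 28 with a listed peak and branch point and helicase factors 7 of 15, while the Prp19 complex and catalytic factors had 11 of 22. The SMN assembly list holds genes of the SMN complex, which assembles Sm rings, and also Prmt5, Clns1a and Wdr77. It had 4 of 12, and the kinases that phosphorylate SR proteins had 4 of 8.

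Shares under the FDR threshold were 33.3% of the 15 branch point and helicase genes and 22.7% of the 22 Prp19 and catalytic genes. For the 12 SMN assembly genes and the 8 kinases they were 16.7% and 12.5%. Beside these stand 28.2% of other CpG island genes and 17.0% of all other genes. The 5 branch point and helicase genes under the threshold included Ddx41 with a log2 fold enrichment of 3.57. U2af2, whose protein binds the polypyrimidine tract, had 3.19, and Ddx39b, Ddx42 and Ddx46 were between 2.64 and 3.04. Of the Prp19 and catalytic list 5 genes were under the threshold. Bud31 had 4.51, above every peak of the 65 genes, and Cdc5l, Mfap1a, Wbp4 and Syf2 were between 2.47 and 2.79. The genes of the SMN assembly list with a listed peak were Smn1 at 3.16 and Gemin7 at 2.41, both under the threshold. Gemin2 and Wdr77, at 2.07, were both above it. Of the kinases, Clk4 had 2.71 and was under the threshold, while Dyrk1a and Srpk1 at 2.30 and Clk3 at 1.98 were above it.

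The regulators that bind RNA were taken as separate lists by presumed breadth of expression, which was not measured here. The placing of single genes, such as Rbfox2, is therefore uncertain, and the lists were not tested against each other. Broadly expressed RNA-binding regulators had 21 of 29 genes with a listed peak (72.4%, interval 54.3 to 85.3), a share near that of the Hnrnp genes. Splicing regulators restricted to certain tissues, such as the neuronal and muscle families, had 7 of 23 (30.4%, interval 15.6 to 50.9). The background was 30.6% of other protein-coding genes and 50.1% of those with a CpG island promoter. The median number of start sites per gene was 3 on the broad list and 4 on the tissue-restricted list, against 2 for other CpG island genes. All 8 listed genes among the 13 of the exon junction complex and SR-related group passed the FDR threshold (61.5% of the list, interval 35.5 to 82.3), where 28.2% of other CpG island genes did and 3571 of the 6348 such genes with a listed peak. Of the genes on the tissue-restricted list 3 were under the threshold (13.0%), beside 28.2% of other CpG island genes. They were Rbfox2 with a log2 fold enrichment of 2.56, Khdrbs3 with 2.44 and Rbm24 with 2.42.

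**Figure D5:**
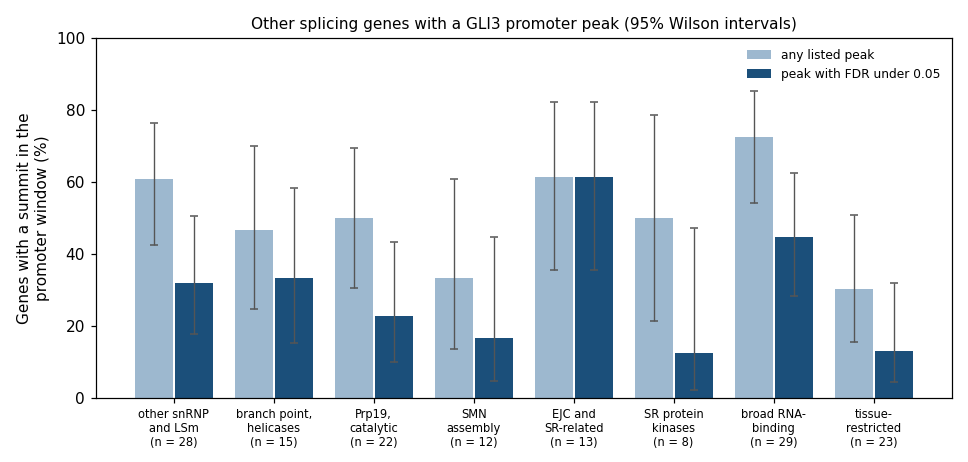
Share of genes (vertical axis, %) with a GLI3 promoter peak in 8 lists of other splicing genes, with any listed peak in pale and peaks with an FDR under 0.05 in dark. Error bars are 95% Wilson intervals. Broadly expressed RNA-binding regulators stand at 72.4% and tissue-restricted regulators at 30.4% for listed peaks.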

How the data were processed

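GLI3-FLAG ChIP-seq libraries of E10.5 forelimb buds (2 ChIP replicates, 1 input) were aligned by the authors with Bowtie2 2.2.5 to mm10, per the submitters' processing notes, and peaks were called with CisGenome. The methods name both replicates for the call, so the list was treated as joint, which it does not state. For each peak the deposited list gives an FDR (q-value), the maximum log2 fold enrichment, a T statistic (score) used for ranking, and the −log10 of a Poisson p-value, which stops at 100. Coordinates are printed as listed.

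Genes were those of GENCODE M21 (basic set), with the TSSs of protein-coding transcripts. A CpG island was any 500 bp window, in steps of 10 bp, with a GC fraction of at least 0.55 and an observed to expected CpG ratio above 0.65. The 5 peaks on unplaced sequence were left out. Shares carry 95% Wilson intervals, computed in Python 3.11.15 with numpy 2.4.6, which cover counting error only. No test was run over the genes. The assignment of peaks was tested on simulated data. Members, families and lists were chosen with earlier results of these data known.

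Values were given for the 4 highest-ranked genes per family under the FDR threshold, the longest peak, genes with 2 or more peaks and those next to the threshold. The values of 1 Prpf gene, which is included in the counts, are not reported here. Genes of the companion lists are named for lists with 5 or fewer genes under the FDR threshold, or 4 or fewer with a listed peak, and were chosen after their values were seen. Alternatives changed the window, the start sites, the FDR threshold, the CpG criteria and the motif rule.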

Additional observations from a re-analysis of the deposited data

How the results depend on the processing

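No paired analysis was possible because peaks carry values from both replicates together, and leaving out a replicate could not be run for the same reason. Of 32 alternatives, 25 kept their direction and moved by less than the counting error or by under 1.5 times, counting by direction alone the difference in the −log10 Poisson p (1.80), which is in another unit. The share of genes with a listed peak was 60.0% and became 38.5% at an FDR under 0.05, beside 50.1% and 28.2% of other CpG island genes. At an FDR under 0.01 it was 26.2%, beside 20.3% of other CpG island genes and 12.2% of all other protein-coding genes. The difference in median log2 fold enrichment from other promoter peaks, 0.0932, reversed to -0.0784 at an FDR under 0.05 and was 0.0523 at an FDR under 0.01. The share of peaks with a GLI match, 13.6%, was 0 with the exact consensus and 6.78% within 100 bp of the summit. The median distance to the start site of the splicing gene, 209 bp, was 128 bp at an FDR under 0.05. Other promoter peaks had 117 bp there, measured to the nearest start of any gene. The cause of these changes was not tested beyond the smaller number of peaks that a stricter rule leaves.

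The excess over other CpG island genes, 9.92 percentage points, ran from 4.28 with a window of 500 bp on each side to 17.5 with the lenient island. It was smaller for genes with an unshared window, 48.8% against 47.8%, and for genes outside the Hnrnp family, 51.1% against 50.1%. A few settings were chosen after the data were seen. Assigning each peak only to the nearest start site gave 55.4%, for which no share of other genes is given here. Leaving out Hnrnp genes gave that 51.1% and 0.0984 for the difference in log2 fold enrichment. The comprehensive annotation, which adds Prpf6, gave 61.5%, beside 50.4% of other CpG island genes and 31.0% of all other genes. At the 26 genes without a listed peak, a peak was not detected in this list, which carries no read counts to set a limit.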

Other observations

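Inside the bodies of the 65 genes but outside the promoter windows there were 3 further peaks. Prpf6 had 2 of them. The first had a log2 fold enrichment of 2.90 (rank 2441) and lay at -8454 bp from the nearest start site of the basic annotation set, near the 5′ end of a longer transcript. The second had 2.63 (rank 4109, FDR 0.004551) and lay in an intron 44648 bp downstream of the start. Hnrnpu, whose promoter peak was weak, had an intronic peak of 2.13 (rank 10267, FDR 0.232703) 1330 bp downstream of its start, the summit nearest to the window's edge on the outside.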
